A study of Saccharomyces cerevisiae with 5 samples.

Results

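The small-subunit processome is the particle in which the small ribosomal subunit begins to form, and 57 yeast genes for its protein factors were followed here in cells that lack SUL1. The genes were taken by name from the deposited expression tables, which list 5886 genes, and all 57 were found. They were sorted by textbook role into 8 groups: the U3 snoRNP proteins (4), the UTP-A (7), UTP-B (6) and UTP-C (3) complexes, the Mpp10 complex with SAS10 (4), RNA helicases (5), pre-40S factors (6) and factors that belong to no larger stable complex in this scheme (22). RNA was sequenced from Saccharomyces cerevisiae grown at 30 °C in YPD, a rich medium with 2% glucose, 2% peptone and 1% yeast extract. The first group held 3 biological replicates of a SUL1 knockout, deleted for a sulfate permease of the plasma membrane, in BY4741, a haploid laboratory strain derived from S288C and auxotrophic through several marker deletions. The second held 2 biological replicates labelled wild type, from table columns named WT4741, and another wild-type replicate that the design text counts was not analysed here. Both groups carry the strain label S288C, and the marker deletions of BY4741 belong to both by that strain's definition. The design text gives exponential growth for both groups, while only the labels of the knockout state a culture density (optical density 0.6). The labels do not say whether the knockout replicates come from 1 clone. The study asked how loss of SUL1 lengthens replicative lifespan and whether protein kinase A (PKA) has a part in it.

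Ribosomes are made from a long precursor RNA that RNA polymerase I transcribes in the nucleolus. While this RNA is still being made, the U3 small nucleolar ribonucleoprotein (U3 snoRNP) base-pairs with it and many proteins assemble around the part that becomes 18S rRNA, forming the processome or 90S particle. The particle folds and cuts the RNA, is taken apart by helicases, and leaves a pre-40S particle that is finished in the cytoplasm. Most of these factors are essential. Their genes belong to the ribosome biogenesis regulon, which growing yeast transcribes strongly under the control of TORC1 and PKA, and which is shut down under stress and starvation.

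The expression unit was FPKM, fragments per kilobase of transcript normalized to library depth. The knockout libraries held an estimated 24500000 to 24950000 fragments, and the wild-type libraries 24950000 and 22550000. SUL1 was listed at 0 FPKM in the 3 knockout libraries and at 8.28 and 9.78 FPKM in the wild type, as the labels say. Knockout replicate 2 stood apart from its group. The SD of its log2 difference over all genes was 0.36 against each of the other knockout libraries. It was 0.26 against wild-type replicate 1 and 0.36 against wild-type replicate 2. Knockout replicates 1 and 3 differed from each other with an SD of 0.18, and from the wild-type libraries with SDs of 0.36 to 0.37. Results that rest on knockout replicate 2 are given with and without it. Summed FPKM of 4 markers of mating type a ranged from 145 to 192 over the knockout libraries and was 195 and 169 in the wild type, and that of 4 markers of mating type alpha ranged from 25.7 to 28.9 and from 27.8 to 28.1. Markers of meiosis (7) summed to 67.9 to 71.8 and 60.8 to 64.4 FPKM. Markers of stationary phase (11) summed to 794, 772 and 678 FPKM in knockout replicates 1, 2 and 3, against 281 and 335 FPKM for the wild type. HSP26 and SPG4 among them were called higher (limma). HSP12 and HSP26 made up most of these sums, at means of 327 and 250 FPKM against 114 and 86.0. In 6 of the 11 all knockout libraries lay above both wild-type libraries, as in 13.1% of all genes tested. SSA3 was slightly lower in the knockout, at means of 8.93 and 9.44 FPKM. SNZ1 read 42.9, 11.0 and 43.7 FPKM in knockout replicates 1, 2 and 3 against 19.3 and 20.8 in the wild type. SNO1 read 19.8, 9.88 and 20.7 FPKM against 12.5 and 11.2. In both genes knockout replicate 2 lay below the wild-type libraries and the other knockout libraries above them. None of these 4 marker lists held a gene at 0 in all 5 libraries. The part that growth phase has in the processome values was not tested. The deposited tables were made one per strain, so genotype and table cannot be told apart either.

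Transcripts of the processome factors read slightly lower without SUL1, but no single factor passed the test. The log2 fold change, knockout minus wild type on log2(FPKM + 1), was below 0 for 55 of the 57 factors, with a median of -0.28, and 62.6% of all 5712 genes tested were below 0, with a median of -0.07. The median difference in mean FPKM was -17.7%. The 57 factors together made up 0.259%, 0.287% and 0.293% of all FPKM in knockout replicates 1, 2 and 3, and 0.344% and 0.373% in wild-type replicates 1 and 2. With limma and Benjamini-Hochberg adjustment over all genes tested, 0 of 57 factors were called at an adjusted p under 0.05, against 15 of 5712 genes, or 0.263%, in either direction and 0.07% in the lower direction. The adjusted p of the 57 ran from 0.132 to 0.870 (limma). At an unadjusted p under 0.05, 31 factors were lower and 0 higher with this fit, while 11.6% of all genes tested were lower at that level. With limma's plain moderation 28 factors passed, against 1032 of 5712 genes in either direction. In 42 of the 57 genes all 3 knockout libraries lay below both wild-type libraries, and in 0 genes above. Over all genes tested the knockout lay below in 28.0% and above in 13.1%. The lowest and highest ratios of group means were 0.616 for UTP20 and 1.05 for RRP7. All 57 passed the low-value filter, with mean levels between 14.5 and 562 FPKM.

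**Figure D1:**
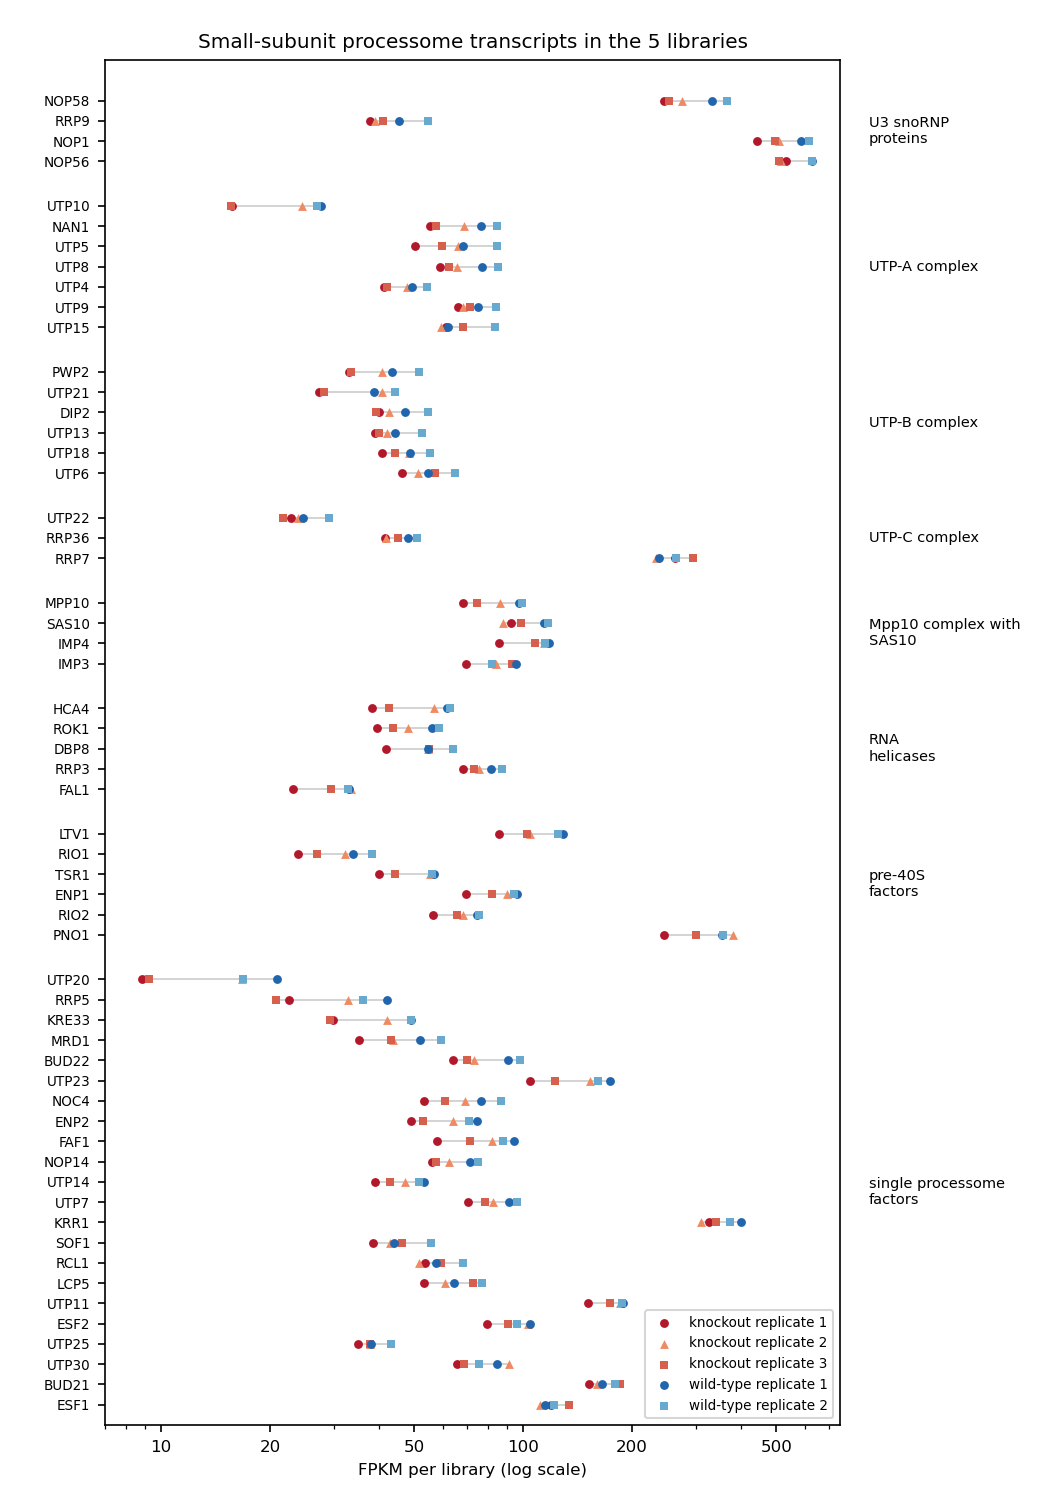
FPKM of each of the 57 factors in the 5 libraries, on a log scale, in 8 role groups, with the most negative log2 fold change first in each group. Reds are the knockout replicates and blues the wild-type replicates, and grey lines join the lowest and highest library. In 42 genes the red symbols all lie left of both blue ones.

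The knockout libraries differed among themselves in these genes, as the plot of deviations by library shows. Relative to the wild-type mean, the median of the 57 factors was -0.42 in knockout replicate 1, -0.18 in knockout replicate 2 and -0.28 in knockout replicate 3 (log2), while the median of all genes tested was -0.05, -0.04 and -0.10. The wild-type libraries lay at -0.04 and 0.04. Knockout replicate 1 was the lowest knockout library for 45 of 57 factors (78.95%, against 23.5% of all genes). Knockout replicate 2 was the highest for 40 of 57 (70.2%, against 49.5% of all genes). Each knockout library nonetheless had most factors below the wild-type mean, namely 55, 53 and 52 of 57 in replicates 1, 2 and 3.

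**Figure D2:**
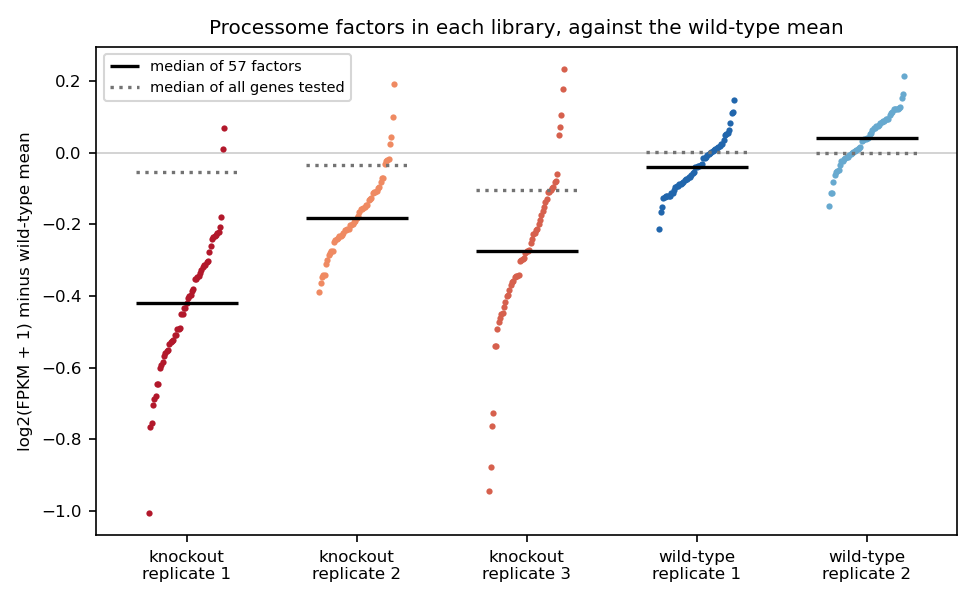
Each point is 1 of the 57 factors in 1 library, as log2(FPKM + 1) minus the mean of the 2 wild-type libraries, sorted by value within a library. Solid bars are the median of the factors and dotted bars the median of all 5712 genes tested. The knockout medians are -0.42, -0.18 and -0.28, below the dotted bars in all 3 libraries.

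Fitted without knockout replicate 2, 25 of the 57 factors were called lower and 0 higher (limma, adjusted p under 0.05), where 10.5% of all genes tested were called lower. The smallest adjusted p of the 25 were those of KRE33, UTP10, UTP20 and RRP5, at 0.00514, 0.00530, 0.00567 and 0.00615 (limma). With a trend on gene length also removed, 14 were called lower, where 4.81% of all genes were. The adjusted p of the same 4 genes was then 0.0226, 0.0429, 0.0565 and 0.0451 (limma), so that UTP20 was no longer called, and the smallest was that of UTP23, at 0.0155. With knockout replicate 1 or knockout replicate 3 left out, 0 of 57 were called (limma). Then 19 and 17 factors had an unadjusted p under 0.05, against 628 and 623 of all 5712 genes tested. Leaving out wild-type replicate 1 or 2 leaves 1 wild-type library, and the median of the 57 was then -0.34 and -0.24. Without each library in turn the median of the 57 stayed between -0.34 and -0.23, and between 53 and 57 of the values were below 0.

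The promoters of the factors share short sequence words. Genes of the ribosome biogenesis regulon are known for the PAC and RRPE elements, which the repressors Dot6 and Tod6 and the repressor Stb3 bind, and the stress element STRE is the site of Msn2 and Msn4. In the 250 bases before each start codon of build R64, the PAC core GATGAG (or CTCATC on the other strand) was present in 51 of 57 factors, or 89.5%, and in 16.9% of 5882 windows of the same length before all genes. The RRPE core, the palindrome AAAATTTT, was present in 44 factors, or 77.2%, and in 8.76% of all windows. Both were present in 41 factors, or 71.9%, and in 4.15% of all windows. PAC and RRPE words cannot share a base. The STRE core AGGGG (or CCCCT) was present in 8 factors, or 14.0%, and in 18.8% of all windows, and 1 of these words overlapped a PAC word. A match is a word in the sequence and not a shown binding site. The windows of 4 factors are printed as examples, with PAC and RRPE words in capitals. They are read from the RefSeq R64 genome 5′ to 3′ on the coding strand up to the base before the start codon. NOP58 (chrXV:898361-898610, minus strand) had the lowest p of the U3 proteins, UTP20 (chrII:227386-227635, plus strand) and RRP5 (chrXIII:731124-731373, minus strand) had the most negative log2 fold changes of the 57, and RRP7 (chrIII:65569-65818, minus strand) had the most positive one.
NOP58: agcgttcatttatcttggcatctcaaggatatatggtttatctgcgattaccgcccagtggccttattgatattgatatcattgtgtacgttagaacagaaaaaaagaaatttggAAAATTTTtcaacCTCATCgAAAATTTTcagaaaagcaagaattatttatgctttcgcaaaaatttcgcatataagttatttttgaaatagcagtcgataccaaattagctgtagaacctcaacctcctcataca
UTP20: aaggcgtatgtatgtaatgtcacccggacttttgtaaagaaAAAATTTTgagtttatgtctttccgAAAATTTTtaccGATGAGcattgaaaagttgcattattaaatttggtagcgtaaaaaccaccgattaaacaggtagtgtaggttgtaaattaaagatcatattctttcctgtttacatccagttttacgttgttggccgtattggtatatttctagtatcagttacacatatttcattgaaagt
RRP5: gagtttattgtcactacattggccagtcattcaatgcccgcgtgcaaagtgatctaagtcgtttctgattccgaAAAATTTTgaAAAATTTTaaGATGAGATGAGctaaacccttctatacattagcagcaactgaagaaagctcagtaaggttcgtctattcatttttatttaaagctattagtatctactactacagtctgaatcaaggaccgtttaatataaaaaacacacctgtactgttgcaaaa
RRP7: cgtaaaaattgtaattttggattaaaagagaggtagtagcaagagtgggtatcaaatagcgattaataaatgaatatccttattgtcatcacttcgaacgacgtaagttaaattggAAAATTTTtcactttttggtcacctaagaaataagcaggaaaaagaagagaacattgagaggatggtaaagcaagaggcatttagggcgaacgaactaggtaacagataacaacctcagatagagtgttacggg

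In NOP58 the PAC word stands between a pair of RRPE words, with 1 base between PAC and the nearer one. UTP20 and RRP5 each carry a pair of RRPE words, followed after 4 and 2 bases by PAC, which occurs in RRP5 as overlapping copies. RRP7 has RRPE and no PAC. Pairs of RRPE words were not typical, as the 44 factors with RRPE held 52 RRPE words in all. Among the 41 factors with both words the nearest pair was separated by a median of 11 bases (range 1 to 41), and RRPE lay farther from the start codon in 34. In the 203 other genes with both words the median was 13 bases (range 2 to 216), and RRPE lay farther out in 122. The word positions centred well upstream of the start codon, with a median of 105 bases for PAC and 129.5 for RRPE in the factors. Fold changes outside the 57 also differed by word, and other genes of ribosome synthesis were not taken out of these sets. The 201 tested genes outside the 57 that carry both words had a median log2 fold change of -0.24. Their quartiles were -0.32 and -0.09, and 89.6% were below 0. The 4478 tested with neither had a median of -0.05, quartiles of -0.18 and 0.10, and 60.1% below 0. With or without the other word, carriers of PAC outside the 57 had -0.12 and 70.3% below 0, and carriers of RRPE outside the 57 -0.16 and 79.7%. Outside the 57, genes with STRE had a median of 0.002. The order of genes with both words below genes with neither held when knockout replicate 2 (-0.28 and -0.06), wild-type replicate 1 (-0.24 and -0.05) or wild-type replicate 2 (-0.20 and -0.05) was left out, and with the length trend removed (-0.21 and -0.04). These genes share 5 libraries, so no test was made across them, and the sets were not chosen independently of known biology. The order was not computed without knockout replicate 1 or knockout replicate 3. Within the 57, the 3 factors with neither PAC nor RRPE were UTP22, UTP30 and ESF2, at -0.23, -0.10 and -0.14.

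**Figure D3:**
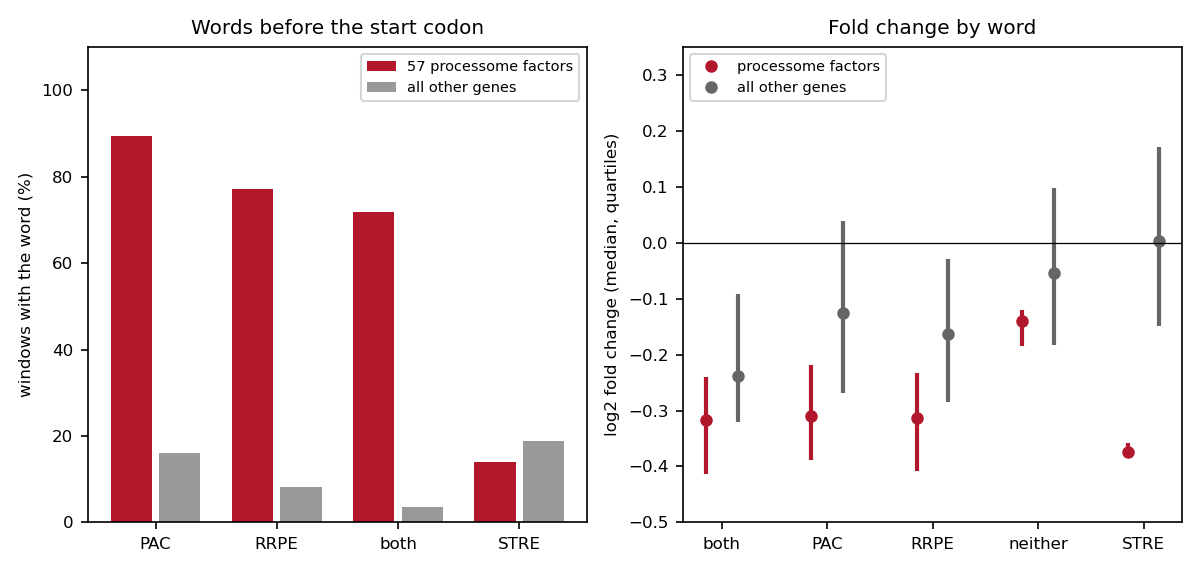
Left, percent of 250-base windows before the start codon that hold the PAC, RRPE or STRE word, in the 57 factors and in all other genes. Right, median log2 fold change (knockout minus wild type) of tested genes with each word, with bars from the lower to the upper quartile. Genes with both words sit lowest among the other genes, at a median of -0.24.

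Counts by role group are to be read beside the shares over all genes tested. The knockout lay below the wild type without overlap in 28.0% of all genes. Without knockout replicate 2, 10.5% of all genes were called lower (limma), or 4.81% with the length trend also removed. U3 snoRNP proteins had a median log2 fold change of -0.33, and in all 4 the groups did not overlap. NOP58, a scaffold protein of box C/D snoRNPs, read 245, 275 and 253 FPKM in knockout replicates 1, 2 and 3 and 333 and 366 FPKM in the wild type. Its log2 fold change of -0.44 ± 0.09 (SE) had one of the smallest p of the 57 and was not called (limma, adjusted p = 0.132). NOP1, the fibrillarin methyltransferase of the same particles, read 443, 508 and 495 FPKM against 584 and 615 (-0.32 ± 0.09). NOP56, the paralogue of NOP58 and the most abundant of the 57 transcripts, read 533, 514 and 508 FPKM against 627 and 627 (-0.27 ± 0.08). In both genes the knockout libraries lay close together and under the wild type, with knockout replicate 2 inside the knockout range or at its upper end. RRP9, which is specific to the U3 particle, was about an order of magnitude less abundant, at 37.8, 39.0 and 40.9 FPKM against 45.5 and 54.4 (-0.33 ± 0.11). Without knockout replicate 2, NOP1 and NOP58 were called lower (limma, adjusted p = 0.0370 and 0.0147).

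UTP-A, the complex that first binds the nascent precursor and is tied to transcription of the ribosomal DNA, had a median of -0.37, or -0.23 without wild-type replicate 2, and 6 of its 7 genes did not overlap between groups. UTP10, its largest subunit and built of helical repeats, read 15.7, 24.5 and 15.6 FPKM in the knockout and 27.6 and 26.9 FPKM in the wild type. Knockout replicate 2 lay near the wild type and the other knockout libraries well under it, so that the log2 fold change of -0.55 carried an SE of 0.20 (limma, adjusted p = 0.228). NAN1, also called Utp17, read 55.2, 68.4 and 57.6 FPKM against 76.4 and 84.7 (-0.41 ± 0.12). UTP15 had the smallest difference of the complex, at 61.4, 59.2 and 68.2 FPKM against 62.0 and 83.8 (-0.20 ± 0.14), and its groups overlapped. Levels of UTP4, UTP5, UTP8 and UTP9 were below the wild type in all knockout libraries, with log2 fold changes of -0.24, -0.38, -0.37 and -0.21. Apart from UTP10, at a mean of 22.1 FPKM over the 5 libraries, mean levels per length in the complex lay between 47.0 and 73.1 FPKM.

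UTP-B, a complex of mostly WD-repeat proteins that bridges U3 and the precursor, had a median of -0.28, and the groups did not overlap in 4 of its 6 genes. PWP2 read 33.0, 40.7 and 33.4 FPKM in the knockout and 43.5 and 51.6 FPKM in the wild type (-0.41 ± 0.13). UTP21 read 27.3, 40.8 and 28.1 FPKM against 38.7 and 44.2 (-0.38 ± 0.18). In UTP21, knockout replicate 2 lay between the wild-type libraries, and the other 2 knockout libraries under both. UTP6 read 46.3, 51.1 and 57.03 FPKM against 54.6 and 64.7 (-0.21 ± 0.12), with overlap. DIP2, UTP13 and UTP18, whose groups did not overlap, had -0.31, -0.26 and -0.22. In all 6 genes wild-type replicate 2 exceeded wild-type replicate 1, by a median of 0.22 on the log2 scale. The median of the complex was -0.40 without wild-type replicate 1, -0.17 without wild-type replicate 2 and -0.17 after removal of the length trend. Of the 6 genes, 2 were called lower without knockout replicate 2 (limma), and 0 with the length trend also removed.

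UTP-C, a small complex that works with casein kinase 2, held 1 of the 2 factors with a value above 0. RRP7 read 263, 232 and 295 FPKM in the knockout and 238 and 264 FPKM in the wild type, a log2 fold change of 0.06 ± 0.12 (limma, adjusted p = 0.779) with overlapping groups, and it turned to -0.03 when libraries were scaled to equal FPKM sums. UTP22 read 22.8, 23.8 and 21.7 FPKM against 24.7 and 29.1 (-0.23 ± 0.11), and RRP36 41.6, 41.9 and 45.1 against 48.0 and 50.8 (-0.20 ± 0.09). The members of this one complex thus differed in level per length by about an order of magnitude, from a mean of 24.4 FPKM for UTP22 to 258 FPKM for RRP7. The median of the complex was -0.20, or -0.02 after removal of the length trend, when UTP22 had -0.02 and RRP36 -0.25.

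In the Mpp10 complex, which places U3 on the precursor, the 4 values lay between -0.37 and -0.12. MPP10 itself read 68.1, 86.1 and 74.5 FPKM in the knockout and 97.7 and 99.2 FPKM in the wild type (-0.37 ± 0.11). SAS10 read 92.7, 88.0 and 98.8 FPKM against 114 and 117 (-0.31 ± 0.09). Both were lower in every knockout library. The small subunit IMP3 read 69.5, 84.3 and 93.1 FPKM against 95.9 and 81.9 (-0.12 ± 0.14), with overlap, and IMP4 had -0.19 ± 0.13. MPP10 was called lower without knockout replicate 2 (limma, adjusted p = 0.0171).

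Among the DEAD-box RNA helicases, which remodel the particle and release snoRNAs from it, the median was -0.24 and the groups of 3 of 5 genes did not overlap. HCA4, also known as Dbp4 and needed for release of the U14 snoRNA, read 38.3, 56.8 and 42.6 FPKM in the knockout and 61.7 and 62.9 FPKM in the wild type (-0.45 ± 0.16). ROK1, needed for release of the snoRNA snR30, read 39.5, 48.0 and 43.7 FPKM against 55.9 and 58.5 (-0.38 ± 0.11). In all 5 helicase genes knockout replicate 1 was the lowest knockout library. FAL1, a relative of the translation factor eIF4A, read 23.2, 33.5 and 29.4 FPKM against 33.1 and 32.9 (-0.21 ± 0.15), with knockout replicate 2 above both wild-type libraries. DBP8 and RRP3 had -0.24 and -0.22. HCA4 and ROK1 were called lower without knockout replicate 2 (limma, adjusted p = 0.00941 and 0.0222).

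The 6 pre-40S factors were grouped by their part in export and late maturation of the small subunit. This grouping does not exclude that some of them also act in the processome itself. The median of the 6 was -0.27. LTV1 read 85.6, 104 and 103 FPKM in the knockout and 129 and 124 FPKM in the wild type (-0.38 ± 0.11). The kinase-like ATPases RIO1 and RIO2 act late, on pre-40S particles. RIO1 read 23.9, 32.2 and 27.0 FPKM against 33.8 and 38.1 (-0.37 ± 0.14), and RIO2 56.5, 68.2 and 65.7 FPKM against 74.5 and 75.3 (-0.24 ± 0.11). Neither gene's groups overlapped. PNO1, an RNA-binding KH-domain protein, was the most abundant of the 6, at 245, 380 and 300 FPKM against 354 and 355 (-0.22 ± 0.17), and knockout replicate 2 exceeded the wild type. In all 6 genes knockout replicate 1 was the lowest and knockout replicate 2 the highest knockout library, with replicate 2 above the mean of the other knockout libraries by a median of 0.29 (log2). ENP1 and TSR1 had -0.25 and -0.29. Without knockout replicate 2 the median of the 6 was -0.40 and 4 were called lower (limma).

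Of the 22 remaining processome factors, 21 had values below 0, with a median of -0.28, and in 15 the groups did not overlap. UTP20, a very large repeat protein and the least abundant of the 57 transcripts, read 8.84, 16.7 and 9.26 FPKM in the knockout and 20.9 and 16.8 FPKM in the wild type. Its log2 fold change of -0.70 ± 0.27 was the most negative of the 57 (limma, adjusted p = 0.245), with knockout replicate 2 just under the lower wild-type library. RRP5, an RNA-binding protein that acts in the synthesis of both subunits, read 22.5, 32.8 and 20.8 FPKM against 42.2 and 36 (-0.63 ± 0.20). KRE33, the acetyltransferase of 18S rRNA, read 29.8, 42.2 and 29.3 FPKM against 49.0 and 49.1 (-0.55 ± 0.16). These 3 long genes share one pattern, with knockout replicates 1 and 3 together and replicate 2 between them and the wild type.

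Other members of this set showed tighter knockout groups. BUD22 read 64.1, 73.1 and 69.8 FPKM in the knockout and 90.7 and 98.1 FPKM in the wild type, and with NOP58 had the smallest adjusted p of the 57 (-0.45 ± 0.10, limma, adjusted p = 0.132). MRD1, an RNA-binding protein with several RNA recognition motifs, read 35.2, 43.7 and 43.1 FPKM against 52.0 and 59.4 (-0.45 ± 0.13). RCL1, a factor related to RNA cyclases and needed for cleavage within the precursor, read 53.5, 51.7 and 59.2 FPKM against 57.6 and 68.3 (-0.19 ± 0.11), with overlap. At the other end, ESF1 read 119, 112 and 134 FPKM against 115 and 121 (0.03 ± 0.10) and BUD21, also called Utp16, 152, 160 and 185 FPKM against 165 and 180 (-0.06 ± 0.11). The groups of both overlapped, and with equal FPKM sums ESF1 had -0.06. ESF1 carries 3 PAC words and no RRPE, and BUD21 carries 1 of each. The remaining 14, such as the partners NOP14 and NOC4 at -0.32 and -0.42, lay between -0.42 for UTP23 and -0.10 for UTP30.

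The most negative values belonged to genes among the longest, although UTP22, of 3714 bp, had -0.23. The coding lengths of the 57 ran from 552 bp for IMP3 to 7482 bp for UTP20, with a median of 1659 bp against 1215 bp over all listed genes, and all 57 have a single coding exon. Across the 57 genes, which share their libraries, the log2 fold change and log2 coding length had a Pearson r of -0.66 and a Spearman rho of -0.59. Without the 5 genes of 3000 bp and more, which are UTP20, UTP10, RRP5, UTP22 and KRE33, these were -0.50 and -0.51 over 52 genes. Over all 5712 genes tested they were -0.44 and -0.52, so the trend was not particular to the factors. Within bins of length the factors had medians of -0.17 under 1000 bp (12 genes), -0.26 from 1000 to under 2000 bp (26), -0.34 from 2000 to under 3000 bp (14) and -0.55 from 3000 bp (5). All genes tested in the same bins had 0.06, -0.09, -0.18 and -0.26. With the trend removed in each library the median of the 57 was -0.23, that of all genes tested was -0.06, and 55 of 57 values were still below 0. At an unadjusted p under 0.05 there were 18 factors, against 725 of all 5712 genes tested (limma). After this step UTP20, RRP5, KRE33, UTP10 and UTP22 had -0.37, -0.36, -0.37, -0.28 and -0.02, and UTP23, of 765 bp, had -0.50.

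**Figure D4:**
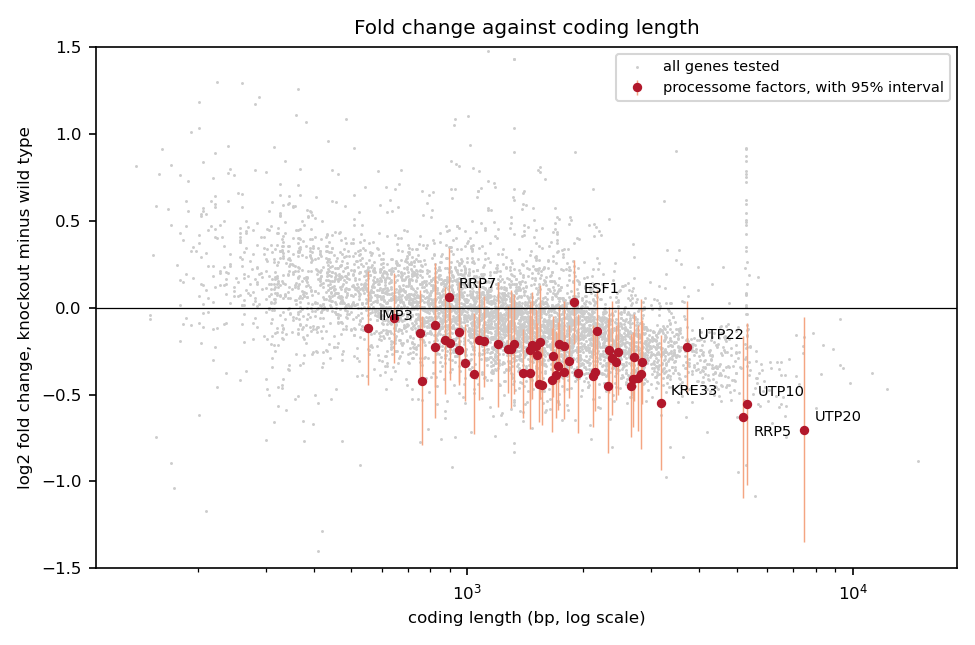
Log2 fold change (knockout minus wild type) against coding length on a log scale, with the 57 factors in red with 95% intervals from limma and all genes tested in grey. The 12 genes beyond 1.5 in either direction are not drawn. The factors follow the downward slope of all genes (Pearson r -0.66 and -0.44) and lie mostly under them at the same length.

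Counting error was low for all 57 genes at the estimated depth, but not below the spread between replicates in every gene. FAL1, with the highest counting error, read 33.1 and 32.9 FPKM in the wild type. The 57 genes were read with an estimated 606 to 21432 fragments each per library, for which counting alone gives a relative error of at most 4.06%. The median SE of the log2 fold change was 0.12. The 95% interval of the log2 fold change lay below 0 for 31 factors before adjustment for multiple tests. For RRP7 it ran from -0.21 to 0.34, and for ESF1 from -0.21 to 0.28.

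Other gene groups of ribosome synthesis held no called gene (limma, 5 libraries), and their medians ran from -0.31 to 0.09. A list of 36 further genes, most of them 90S and pre-40S factors such as SNU13, BMS1 and ECM16, had 33 values below 0 and a median of -0.27. Its most negative value was that of the export factor RRP12, at 27.9, 43.6 and 27.9 FPKM in the knockout and 48.5 and 52.6 FPKM in the wild type (-0.63 ± 0.20, limma, adjusted p = 0.209). Assembly factors of the large subunit had 59 of 59 values below 0 and a median of -0.31, and RNA polymerase I machinery 15 of 16 and -0.28. Genes for proteins of box H/ACA snoRNPs, particles that carry out pseudouridylation, and for their assembly had 5 of 6 and -0.19. The largest differences of these 3 lists were URB1 at -0.55, RPA190, the largest polymerase subunit, at -0.63, and NAF1, an assembly factor of H/ACA particles, at -0.47. The 40S ribosomal proteins, the building blocks of the same subunit, had 13 of 56 values below 0 and a median of 0.09, against 0.002 if libraries were scaled to equal sums and -0.05 with the length trend taken out. Their largest difference was RPS30B at 1.01, a gene with a near-identical paralogue between which reads could be split, and their median coding length was 432 bp. With 5 libraries shared by all lists, the difference between lists was not tested. Once knockout replicate 2 was left out, 17 of 36, 35 of 59, 7 of 16 and 2 of 6 genes of the assembly and polymerase lists were called lower and 0 higher (limma, where 10.5% of all genes were called lower). Of the 56 ribosomal protein genes, 1 was then called lower and 4 higher, where 298 of all 5712 genes tested were called higher. With the length trend also removed 2 were called lower and 0 higher, where 4.81% of all genes were called lower.

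Transcripts of the regulators of these genes gave no call either, with 12 of 17 below 0 and a median of -0.21, or -0.07 after removal of the length trend. The largest difference was that of TOD6, a repressor that binds PAC, at 31.0, 40.5 and 37.2 FPKM in the knockout and 44.5 and 57.6 FPKM in the wild type (-0.48 ± 0.15, limma, adjusted p = 0.201). Chosen after their values were seen, its paralogue DOT6 had -0.03 ± 0.08 and STB3, the repressor that binds RRPE, 0.01 ± 0.10. IFH1, an activator of ribosomal protein genes that also forms a complex with UTP22, RRP7 and casein kinase 2, was likewise chosen afterwards and had -0.29 ± 0.10.

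**Figure D5:**
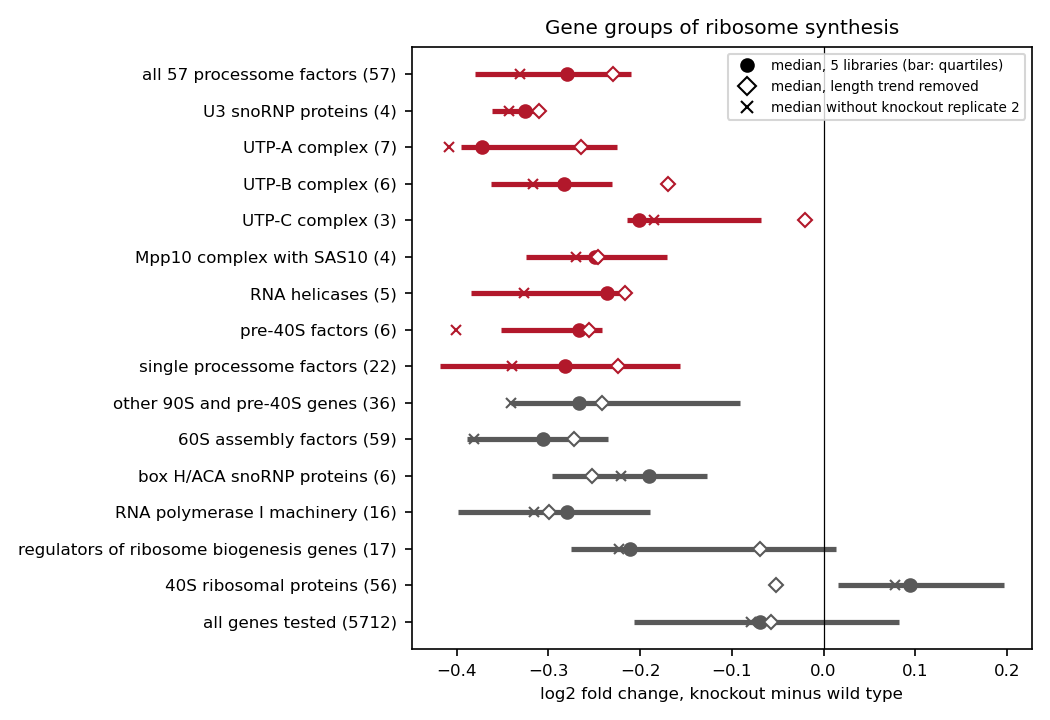
Median log2 fold change (knockout minus wild type) of each group, with bars from the lower to the upper quartile, diamonds after removal of the length trend, and crosses without knockout replicate 2. Numbers in brackets are genes tested. The 57 factors (median -0.28) and the other assembly lists lie below all genes tested (-0.07), and 40S ribosomal proteins (0.09) above.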

How the data were processed

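Gene-level FPKM from 5 libraries were analysed, 3 of the SUL1 knockout and 2 of the wild type, grouped by the genotype label. The authors deposited FPKM per gene and library, per the file headers, with each library scaled on its own. RSEM 1.3.1, DESeq2 1.4.5, HISAT2 2.1.0, Bowtie2 and build R64 are named, without roles, per the submitters' processing notes. Which tool did what, the annotation and whether counting used strand: not given in the sources used here. None of the 57 genes overlaps another listed gene.

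The tables were joined on the gene identifier, and 2 symbols turned into dates were restored. Of 5886 genes, 5883 matched the RefSeq R64 annotation, which gave positions and coding lengths. Log2(FPKM + 1) of the 5712 genes that averaged 1 FPKM or more was tested with limma 3.58.1 in R 4.3.3 (trended prior, robust moderation, genotype only, Benjamini-Hochberg over all genes, threshold 0.05). A fold change on this scale understates that of low genes. The length trend was a loess curve (span 0.5) of each library's deviation on log2 coding length. Alternatives were a pseudocount of 0.1, no filter or a filter of 10 FPKM, equal FPKM sums, median-of-ratios scaling, plain moderation, a replicate block and leaving out each library. The fit was tested on simulated data. Depth was estimated from steps between FPKM values up to 1.5 in genes of 300 to 1200 bp. At the best depth and length offset (140 to 145 bp), 87.0% to 92.8% of 91 to 111 values per library were whole fragments within 0.15, where 30% is expected by chance. It entered no test, and counting errors derived from it cover counting only.

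The members, the gene lists and the roles were chosen with earlier results of these data known. In the role groups, the genes named are the 2 most negative values and the most positive one (5 and 2 for the largest group), with the highest and lowest levels and 13 preset genes. In the other lists the gene with the largest difference is named. Other genes are named as examples of their group. Symbols from the lists that the tables do not hold were left out. Promoter words were exact matches in the 250 bases before the start codon. The other tools were scipy 1.17.1, numpy 2.4.6, pandas 2.3.3 and matplotlib 3.10.9 under Python 3.11.15.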

Additional observations from a re-analysis of the deposited data

How the results depend on the processing

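The count of 0 called factors held under every alternative except those without knockout replicate 2, where it was 25, or 14 with the length trend also removed (range 0 to 25 over the libraries left out, limma). The median of the 57, the count of values below 0 (53 to 57 over all alternatives) and the count of genes without overlap (34 with median-of-ratios scaling to 49 without wild-type replicate 1) kept their direction, and the median ranged from -0.37 with equal FPKM sums to -0.22 with median-of-ratios scaling. All genes tested shifted from a median of -0.07 to -0.16 with equal FPKM sums. Over all genes, 15 calls became 8 with equal FPKM sums, 6 with the length trend removed, 0 with a replicate block (399 genes passed unadjusted, limma), 436 when knockout replicate 2 was dropped with the length trend removed, and 0 to 896 over the libraries left out. With 1 wild-type library left, that library was assumed to vary like the knockout. The replicate numbers do not pair the samples by any label. Deviations from the group means of same-numbered libraries correlated at -0.37 and -0.43 over genes, and the block gave 0 called factors, 14 with an unadjusted p under 0.05 and a median of -0.29.

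Direction changed for RRP7, ESF1, BUD21 and UTP15, which had 0.06, 0.03, -0.06 and -0.20 with all libraries. RRP7 had -0.0282 with equal FPKM sums, -0.0203 with the replicate block and -0.0203 to 0.1504 over the libraries left out. ESF1 had -0.0568, -0.0361 and -0.0361 to 0.0936 in the same order. BUD21 had 0.00428 with median-of-ratios scaling and -0.144 to 0.00213 over the libraries left out, and UTP15 had -0.411 to 0.0181 over them, the latter without wild-type replicate 2. The causes were not tested. With a window of 500 bases, chosen after seeing the data, PAC was present in 91.2% of factors, RRPE in 77.2% and both in 71.9%, against 28.1%, 12.6% and 6.09% of all windows. Counting error at the estimated depth was at most 4.06% for any of the 57 genes, and the effect of depth on the calls was not tested.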
